A study of Mus musculus with 2 samples.

Results

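The complement system was examined through 9 of its genes, C1qa, C1qb, C1qc, C3, C4b, C3ar1, C5ar1, Cfb and Cfp, among the 22886 genes of 2 RNA sequencing libraries. The genes were chosen by name, each was found on a single line of both files, and all 9 passed the filter on low values, which asked for a mean RPKM of 1 or more. RPKM are read numbers divided by transcript length and by library size. The libraries are labelled as sorted aerobic cells of subcutaneous LLC tumors, a lung carcinoma line grown in mice, from wild type C57BL/6 mice that had received vehicle or clodronate, which is widely given in liposomes to deplete phagocytes. There was 1 library per condition, so no difference has a replicate check, no p-value is given, and a difference between conditions cannot be told apart from one between mice, sorts or preparations. How many mice were pooled, the sorting gate and the dose are not given in the sources used here. A growth protocol in the labels names EML cells, a blood progenitor line, which conflicts with the other labels.

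Complement is a cascade of plasma and tissue proteins that tags particles for uptake and lyses cells. The classical pathway starts when C1q, a hexamer of trimers of the A, B and C chains encoded by C1qa, C1qb and C1qc, binds antibody or debris. The serine protease C1r then activates the serine protease C1s, which cleaves C4 and C2 into an enzyme that splits C3. In the alternative pathway deposited C3b binds factor B, the product of Cfb, and properdin, the product of Cfp, stabilises the resulting enzyme. The small fragments C3a and C5a signal through the receptors C3ar1 and C5ar1. The liver makes most plasma complement, whereas C1q and properdin are largely made by myeloid cells.

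The labelled tumor cells were checked against marker genes. A difference is given as a log2 ratio, for which 1 RPKM was added to both values and the clodronate level was divided by the vehicle level. The 10 macrophage markers ranged from 17.5 to 10534 RPKM in the vehicle and from 42.3 to 11189 RPKM in the clodronate library, with 8 higher and 2 lower and a median log2 ratio of 0.28. Of these, Itgam is also a complement receptor and Fcgr1 an Fc gamma receptor of the lists given later. Epithelial markers reached 6.44 RPKM at most, with Epcam and Krt19 listed at 0 in both, so the libraries hold macrophage RNA at a high level and few transcripts of epithelial markers. Markers of hepatocytes, the main source of plasma C3 and C4, were at most 0.569 RPKM with Alb and Ttr listed at 0 in both. Of 7 fibroblast markers 6 were lower, with summed levels of 156 RPKM with vehicle and 75.7 RPKM with clodronate and none listed at 0 in both. Of 5 neutrophil markers found, S100a9 and Mpo were listed at 0 in both. S100a8 had 12.7 RPKM with vehicle and 23.1 RPKM with clodronate, Csf3r 26.4 and 19.3 RPKM and Cxcr2 4.06 and 2.69 RPKM. The summed level of the neutrophil markers was 43.1 and 45.1 RPKM. The 4 monocyte markers summed to 109 and 153 RPKM, and the 2 endothelial markers kept had log2 ratios of 0.95 and 1.52 at levels of at most 3.33 RPKM. Dendritic cell markers summed to 5.49 and 4.36 RPKM, B cell markers to 2.99 and 1.74 RPKM and T and NK cell markers to 0 and 1.02 RPKM. The part of these lists in the values of the complement genes was not tested.

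All 9 genes were expressed at 16 RPKM or more in both libraries, as the plot of levels shows. The C1q subunits lay above 1000 RPKM, the receptors and properdin between 206 and 367 RPKM, and C3, C4b and Cfb below 73 RPKM. The clearest differences were in C4b and Cfb, which were 2.68 and 2.74 times higher in the clodronate library, and in C1qc, which was 1.95 times higher in the vehicle library. In sorted bulk cells, fewer cells of a type and less RNA per cell cannot be told apart. At 2-fold on the scale of the log2 ratio 2 of the 9 genes were higher and 0 lower, against 6.95% higher and 6.77% lower of the 10982 genes kept. At 3-fold 0 of the 9 were past the threshold in either direction, against 5.18% of all genes kept, 2.86% higher and 2.32% lower. The median log2 ratio of the 9 genes was 0.35, with 7 above 0, C1qb by only 0.005, and 2 below. That of all genes kept was 0.019, with 5664 genes above 0 and 5318 below.

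**Figure D1:**
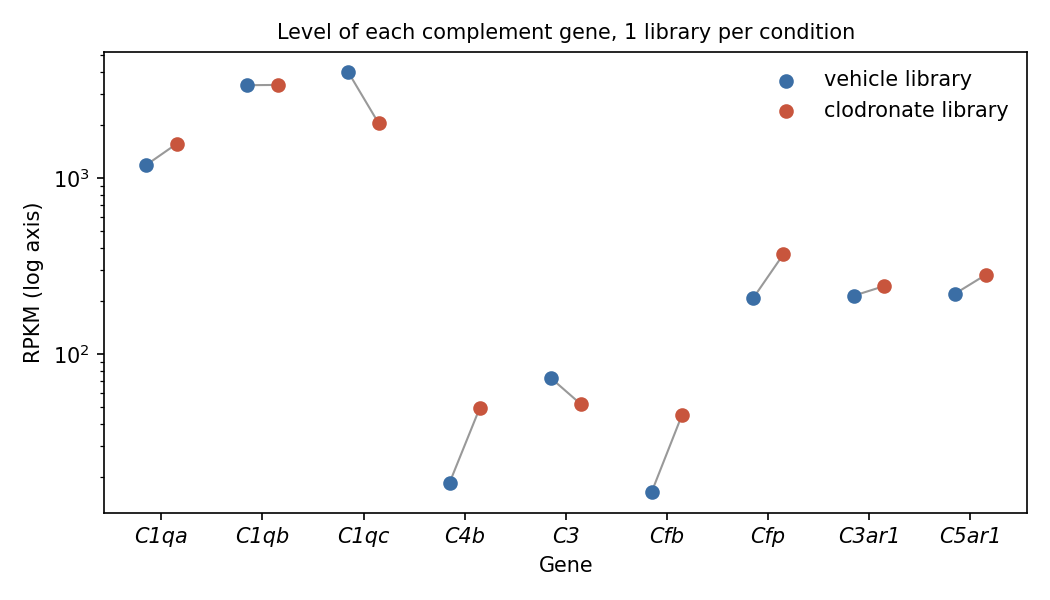
RPKM on a log axis of the 9 complement genes in the vehicle library (blue) and the clodronate library (red), with a line joining the values of a gene and 1 library per condition. C4b and Cfb are higher in the clodronate library, C1qc is lower, and C1qb is level at 3372 and 3384 RPKM.

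The 3 C1q subunits were among the most abundant transcripts of both libraries. C1qb, the B chain, had 3372 RPKM with vehicle and 3384 RPKM with clodronate, rank 19 and rank 13 of all genes. C1qc, the C chain, had 3984 and 2043 RPKM, rank 15 and rank 34. C1qa, the A chain, had 1185 and 1563 RPKM, rank 80 and rank 50. The subunits stayed near the top of both libraries while their proportions differed. Together they made up 1.42% of the summed RPKM of the vehicle library and 1.17% of that of the clodronate library.

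RPKM are per length, so the levels of the subunits can be set side by side within a library. The protein holds the A, B and C chains in equal numbers. The level of C1qc was 3.36 times that of C1qa in the vehicle library and 1.31 times in the clodronate library. Against C1qb, the level of C1qc was 1.18 times in the vehicle library and 0.604 times in the clodronate library, so the order of these chains was exchanged. C1qb stood at 2.85 and 2.17 times the level of C1qa. The log2 ratio was 0.40 for C1qa, 0.005 for C1qb and -0.96 for C1qc, close to but short of 2-fold lower. Among 93 genes whose mean was 1000 RPKM or more, 9 had a log2 ratio as low as that of C1qc, itself included, and the range from the 5th to the 95th percentile of these genes was -1.15 to 1.18. C1qc was past 2-fold lower in 3 of 8 alternatives of the processing, at log2 ratios of -1.03 with equal upper quartiles, -1.05 with the trends of GC content and length removed and -1.24 relative to macrophage markers. The log2 ratio of C1qb was below 0 in 3 of the 8, between -0.27 and -0.014. Across all genes kept the median log2 ratio ran from -0.24 in the tenth of genes with the lowest GC content to 0.29 in the tenth with the highest. C1qc, at 57.5% GC, lay against that trend, whereas C1qa at 59.5%, Cfp at 56.3% and C4b at 55.3% lay with it. With the trends of GC content and length removed, the log2 ratio was 0.38 for C1qa, 0.72 against 0.83 for Cfp and 1.18 against 1.37 for C4b.

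The C1q genes are neighbours on mouse chromosome 4. In the coordinates of the files, on the build mm9, C1qb lies at chr4:136436061-136442092, C1qc at chr4:136445717-136448829 and C1qa at chr4:136451831-136454759, a cluster of 18699 bases. The gaps were 3624 bases between C1qb and C1qc and 3001 bases between C1qc and C1qa. The genes on either side were near silent, with Ephb2 at 0.381 and 0.155 RPKM and Epha8 listed at 0 in both libraries. The transcripts share 57% to 59% of aligned bases, and none of the 50-base windows of one chain occurs in another, so reads of this length from 1 chain are not shared with the others. Their lengths are alike, 1040 nt for C1qa, 1088 nt for C1qb and 1203 nt for C1qc, as is their GC content, from 57.4% to 59.5%.

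The promoters of C1qb and C1qc are shown because these adjacent genes differed in their log2 ratio. The 250 bases before the annotated start, 5′ to 3′ on the minus strand, are from RefSeq on GRCm38.p6, at chr4:136886201-136886450 for C1qb and chr4:136892915-136893164 for C1qc. Capitals mark 2 motifs of the Ets family, to which the myeloid factor PU.1 belongs, searched on both strands, GAGGAA and GGAAGT.
C1qb: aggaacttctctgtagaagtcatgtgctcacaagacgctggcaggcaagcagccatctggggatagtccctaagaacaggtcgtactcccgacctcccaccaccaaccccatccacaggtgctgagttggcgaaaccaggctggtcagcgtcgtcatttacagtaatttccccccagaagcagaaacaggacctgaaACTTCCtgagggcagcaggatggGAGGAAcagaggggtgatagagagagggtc
C1qc: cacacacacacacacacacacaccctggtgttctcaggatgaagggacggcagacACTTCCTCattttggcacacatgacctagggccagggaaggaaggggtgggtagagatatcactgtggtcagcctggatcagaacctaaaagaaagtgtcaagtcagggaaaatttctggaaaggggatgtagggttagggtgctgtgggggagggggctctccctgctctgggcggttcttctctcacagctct
Both windows held each motif once. In C1qb the motifs started 53 and 30 bases before the annotated start, apart from each other. In C1qc they overlapped, 195 and 193 bases before the start. Of 32851 mouse promoter windows of this length 23.3% held GAGGAA and 19.7% held GGAAGT, so both are common. Promoters of 6 of the 9 genes were in the reference table, and of these C5ar1 also held GGAAGT. A gamma interferon activation site (TTCNNNGAA, in 7.02% of all windows), an interferon-stimulated response element (GAAA, any 2 bases and GAAA, in 2.98%) and an NF-kB site (GGGA, any base and TTTCC, in 0.356%) were found in 0 of the 6 windows. Cfb and C4b were not among the 6.

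C4b, which encodes the C4 protein of the classical and lectin pathways, had 18.4 RPKM with vehicle and 49.3 RPKM with clodronate, a log2 ratio of 1.37. As high a ratio was found in 3.86% of the genes kept, and in 108 of the 5913 genes whose mean was 10 RPKM or more. The level corresponds to about 1254 and 2744 reads, by an estimate from the spacing of low values. C4b has a near-identical copy, C4a, which encodes the sex-limited protein in some strains and is annotated as a transcribed pseudogene in the reference. C4a had 0.014 and 0.362 RPKM, far below C4b in both libraries. Over the aligned transcripts 96.1% of bases were identical, and 35.2% of the 50-base windows of C4b also occur in C4a. Such reads could have been assigned to either gene, and the values of both are therefore uncertain. The 60-base stretch of the C4b open reading frame that differs most from C4a is shown. It is an example of where reads of the copies can be told apart, with the 13 differing bases in capitals. The sequences are from GENCODE M21 transcripts on GRCm38.
C4b: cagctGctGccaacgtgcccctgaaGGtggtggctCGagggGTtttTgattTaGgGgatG
C4a: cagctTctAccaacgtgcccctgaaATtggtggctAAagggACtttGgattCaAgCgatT
The stretch starts at base 2761 of the C4b transcript and at base 2755 of the C4a transcript, both counted from 1 at the 5′ end.

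C3, the central component on which all pathways converge, was the only member besides C1qc that was lower in the clodronate library. It had 72.9 RPKM with vehicle and 51.6 RPKM with clodronate, a log2 ratio of -0.49, and 19.9% of all genes kept were as low. This direction was opposite to that of C4b and Cfb. The level of C3 was 3.95 times that of C4b and 4.44 times that of Cfb in the vehicle library, and 1.05 and 1.14 times in the clodronate library, where the 3 genes were nearly level. C3 lies at chr17:57343396-57367559 on mm9, outside the stretch that holds C4b and Cfb, and rested on about 4735 and 2738 reads. Fibroblasts also make C3, and their markers summed to 156 RPKM with vehicle and 75.7 RPKM with clodronate. Their part in the level of C3 was not tested. Of its neighbours, Gpr108 had 37.1 and 41.5 RPKM and Tnfsf14 0.483 and 1.13 RPKM.

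Cfb, the protease of the alternative pathway, had 16.4 RPKM with vehicle and 45.0 RPKM with clodronate. The log2 ratio was 1.40, and 3.63% of the genes kept were as high. The level corresponds to about 568 and 1274 reads. Cfb and C4b kept nearly the same proportion to each other, 1.12 C4b per Cfb in the vehicle and 1.10 in the clodronate library. Cfp, properdin, was more abundant, with 206 RPKM with vehicle and 367 RPKM with clodronate, 1.78 times higher with a log2 ratio of 0.83. About 4266 and 6213 reads stood behind these values. The level of Cfp was 12.6 times that of Cfb in the vehicle and 8.15 times in the clodronate library. Cfp lies at chrX:20502661-20508650 on mm9. The genes on either side were also higher with clodronate, Syn1, a synaptic vesicle protein gene, at 5.86 and 16.9 RPKM and Elk1, an Ets family factor, at 4.12 and 7.79 RPKM.

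The anaphylatoxin receptors were close to level. C3ar1, the receptor of C3a, had 214 and 243 RPKM in the vehicle and clodronate library, and its log2 ratio of 0.18 became -0.099 relative to macrophage markers. C5ar1, the receptor of C5a, had 220 and 281 RPKM, a log2 ratio of 0.35. The receptors were present in nearly equal amount, with 1.03 and 1.16 C5ar1 per C3ar1. C3ar1 lies at chr6:122797158-122806175 and C5ar1 at chr7:16832092-16844889 on mm9. The estimated reads were 11657 and 10808 for C3ar1 and 6979 and 7289 for C5ar1. Of the neighbours of C3ar1, Foxj2 had 19.7 and 22.1 RPKM, a log2 ratio of 0.16 close to that of C3ar1. Necap1, on the other side, had 9.74 and 22.5 RPKM, a log2 ratio of 1.13 that was not seen in C3ar1. C5ar2, the other C5a receptor and the neighbour of C5ar1 on chromosome 7, was far lower, at 5.96 and 5.57 RPKM.

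**Figure D2:**
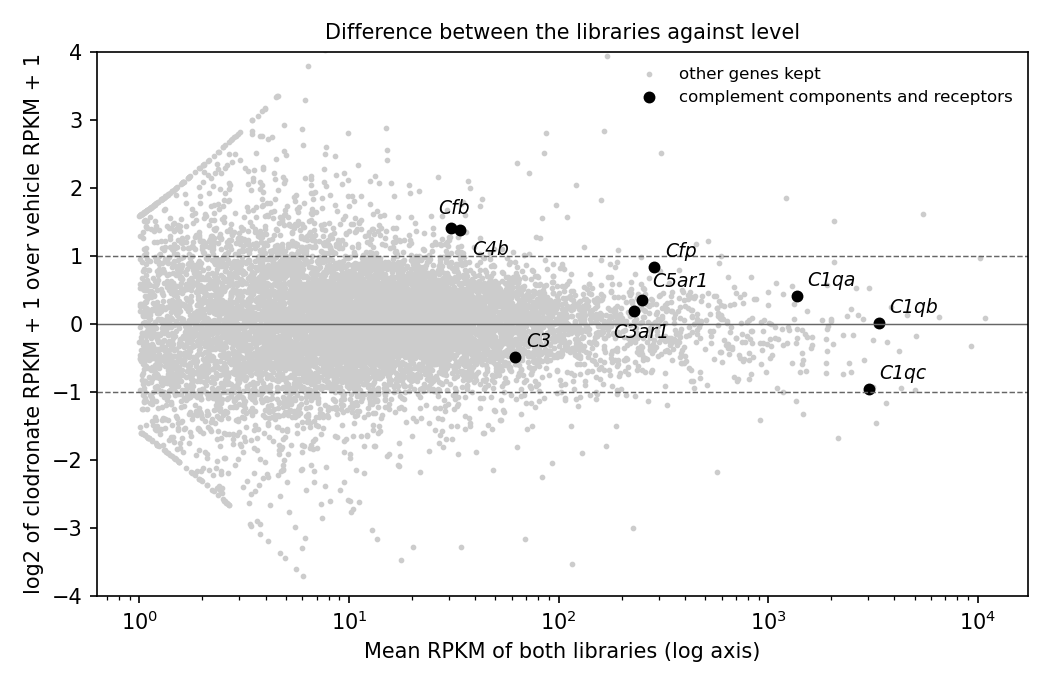
The log2 ratio of clodronate over vehicle against the mean RPKM of both libraries (log axis) for the genes kept (grey) and the 9 complement genes (black), with dashed lines at 2-fold. C4b and Cfb lie above the upper line, C1qc lies just inside the lower one, and 52 of the 10982 genes fall outside the plotted range of 4 on either side.

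C4b and Cfb lie in the same stretch of chromosome 17, within the mouse major histocompatibility complex, 112476 bases apart. C4b is at chr17:34865326-34880842 and Cfb at chr17:34993319-34999459 on mm9. The log2 ratio differed from gene to gene along the stretch. Between them, Skiv2l, a helicase of RNA decay, had 11.5 and 21.3 RPKM, a log2 ratio of 0.83, and Nelfe, a subunit of the negative elongation factor, had 11.7 and 22.8 RPKM, a log2 ratio of 0.91. A single base lies between Nelfe and Cfb in the files, so reads at this junction can be split between them. Dxo had 33.1 and 29.2 RPKM and Stk19 15.9 and 19.2 RPKM, log2 ratios of -0.18 and 0.26. C2, the classical pathway homologue of factor B, lies 87 bases beyond Cfb and differed in the opposite direction, with 1.49 RPKM with vehicle and 0.146 RPKM with clodronate. This is about 50 and 4 reads, so the size of that ratio is poorly determined. No 50-base window was shared between the transcripts of Cfb and C2. The genes of the plot of this region that lie outside the span, Tnxb, C2, Zbtb12 and Ehmt2, had log2 ratios of 0.002, -1.12, 1.09 and 0.50.

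**Figure D3:**
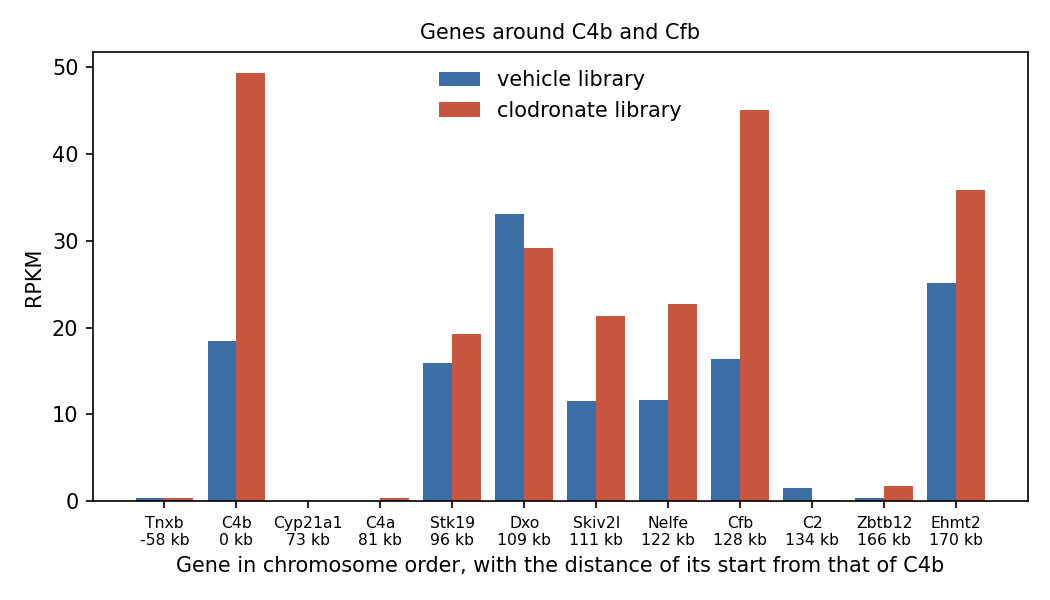
RPKM in the vehicle (blue) and clodronate (red) library of the genes around C4b and Cfb in chromosome order, with the distance of each start from the start of C4b in kb. C4b and Cfb reach 49.3 and 45.0 RPKM in the clodronate library, while Dxo between them is lower there at 29.2 RPKM against 33.1 RPKM.

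A further list of 48 complement genes was examined by role, of which 21 passed the filter and 19 were listed at 0 in both libraries. Past 2-fold there were 2 higher and 4 lower of the 21, or 28.6% against 13.7% of all genes kept, and the median log2 ratio was 0.12. Among initiators, Fcna, a ficolin of the lectin pathway made by macrophages, had 87.0 and 109 RPKM and was the only one above 14 RPKM. C1ra, the C1r protease, had 2.55 and 7.02 RPKM with a log2 ratio of 1.17, whereas its partner C1s1 was listed at 0 with vehicle and had 0.0985 RPKM with clodronate. Cfd, the protease that activates factor B, was listed at 0 in both. Of the 7 terminal components, which form the membrane pore, 5 were listed at 0 in both, Hc (C5) and C9 among them. C6 was present, with 1.73 RPKM with vehicle and 18.1 RPKM with clodronate, a log2 ratio of 2.80 on about 63 and 537 reads. As a share, 0.546% of the genes kept had as high a ratio. C8g, the gamma chain of C8, had 1.38 and 1.86 RPKM.

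The receptor list held 10 genes, namely receptors of deposited complement, C5ar2 and proteins reported to bind C1q. Of these 10 genes 8 had at least 10 RPKM in both libraries, against 5234 of all 22886 genes. Itgam and Itgb2, the chains of complement receptor 3, had 385 and 510 RPKM and 403 and 464 RPKM. Itgax, the alpha chain of complement receptor 4, had 21.2 and 19.6 RPKM. Vsig4, a receptor of tissue macrophages for C3b, was lower, with 45.1 RPKM with vehicle and 18.3 RPKM with clodronate, a log2 ratio of -1.25. Cr2 was listed at 0 in both. Of the receptors and proteins reported to bind C1q, Cd93 had 112 and 168 RPKM, Calr 372 and 485 RPKM, Lrp1 225 and 386 RPKM and C1qbp 30.6 and 15.6 RPKM.

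The regulators were lower in the clodronate library more often than higher, with 5 of 6 genes kept below 0 and 3 at least 2-fold lower, against 6.77% of all genes kept at least 2-fold lower. Cr1l (Crry), the membrane regulator of C3 on mouse cells, had 205 RPKM with vehicle and 54.3 RPKM with clodronate, 3.78 times higher with vehicle, a log2 ratio of -1.90. As low a ratio was found in 1.33% of the genes kept. Cd55, which dissociates the C3-cleaving enzymes, had 5.72 and 1.38 RPKM, a log2 ratio of -1.50 on about 183 and 36 reads. Clu, clusterin, had 4.52 and 1.44 RPKM, a log2 ratio of -1.18. Cd59a, which blocks the pore, had 7.87 and 8.62 RPKM.

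**Figure D4:**
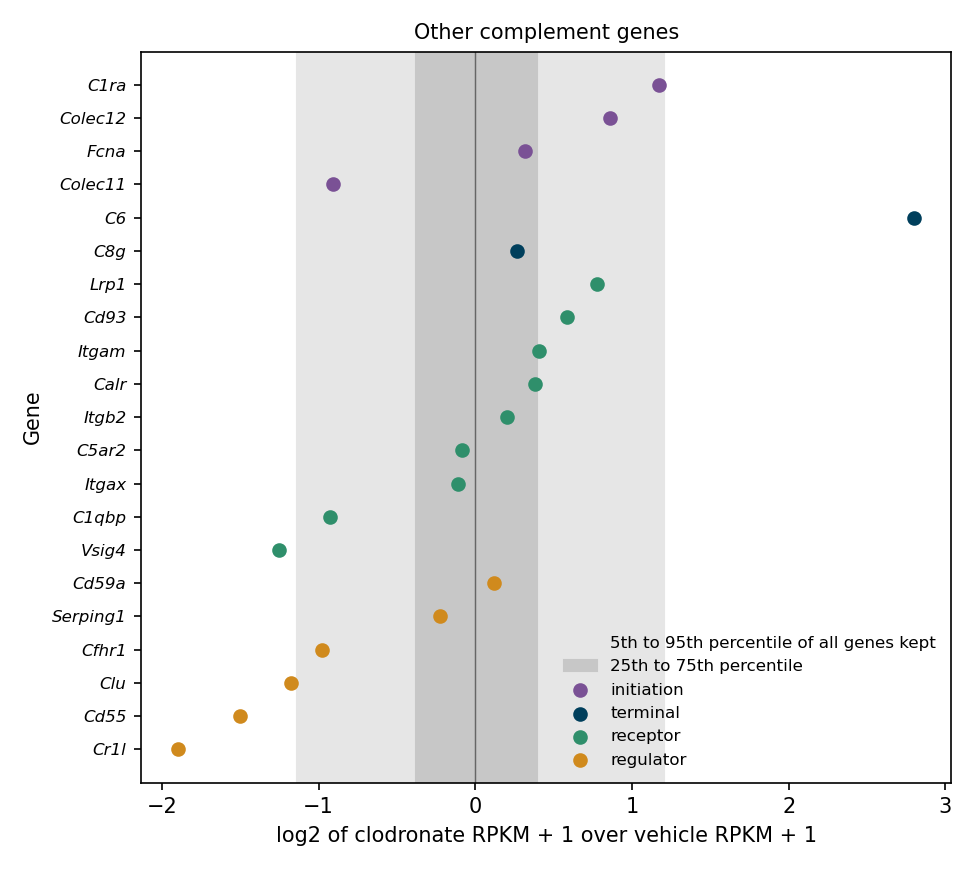
The log2 ratio of clodronate over vehicle for the 21 further complement genes that passed the filter, coloured by role, with bands for the 25th to 75th and the 5th to 95th percentile of all genes kept. C6 lies far to the right at 2.80 and Cr1l far to the left at -1.90.

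The list of Fc gamma receptors and their signalling chain, which bind the antibody that also recruits C1q, was set beside the complement genes. All 5 genes were within 2-fold, with log2 ratios from -0.25 for Fcgr3 to 0.88 for Fcgr1 and a median of 0.002. The 8 genes of MHC class II presentation, most of which share the major histocompatibility complex with C4b and Cfb, had a median of -0.45, with 7 lower and 3 at least 2-fold lower. Of the 10982 genes kept 5318 were lower and 6.77% at least 2-fold lower. H2-Aa, with the lowest log2 ratio of this list at -1.68, had 3283 RPKM with vehicle and 1027 RPKM with clodronate, opposite in direction to C4b and Cfb. Cd74, the only gene of the list that was higher, had 6290 and 6752 RPKM, a log2 ratio of 0.10. A difference between the lists was not tested.

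The genes whose levels were most like those of each member were found by the distance in log2(RPKM + 1) over the 2 libraries, which can show only likeness in 2 values. Cd68, a lysosomal protein of macrophages, was nearest to C1qa, with 1183 and 1536 RPKM. Nearest to C1qb and C1qc were Eef1a1, a translation elongation factor, with 3335 and 3476 RPKM, and Rps28, a ribosomal protein, with 4149 and 2163 RPKM. Oas2, an interferon-induced antiviral enzyme, was nearest to C4b, with 17.8 and 49.4 RPKM. It was followed by Ubtd1 with 19.1 and 47.4 RPKM and Pdzd11 with 19.9 and 52.2 RPKM. The 3 genes nearest to Cfb were Cd209d, a lectin, with 17.4 and 43.4 RPKM, the cytokine gene Il10 with 17.2 and 42.8 RPKM and Cd163, the haemoglobin scavenger receptor, with 17.5 and 42.4 RPKM. Tnfaip3 was nearest to C3ar1, Tcirg1 to C5ar1, Pnrc2 to C3 and Lrp1 to Cfp, all within 0.15 in distance.

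When the macrophage markers were taken as the reference, the median of all genes kept moved from 0.019 to -0.26, and 5 of the 9 complement genes were higher and 4 lower. C1qb and C3ar1 then changed sign. The genes past 2-fold became 484 higher and 1328 lower, against 763 higher and 744 lower without this step. C4b and Cfb remained more than 2-fold higher in all 8 alternatives for which a ratio was computed, from 1.09 to 1.42 and from 1.12 to 1.46. The alternative that takes the highest line of a symbol could not change them, since each stands on a single line.

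**Figure D5:**
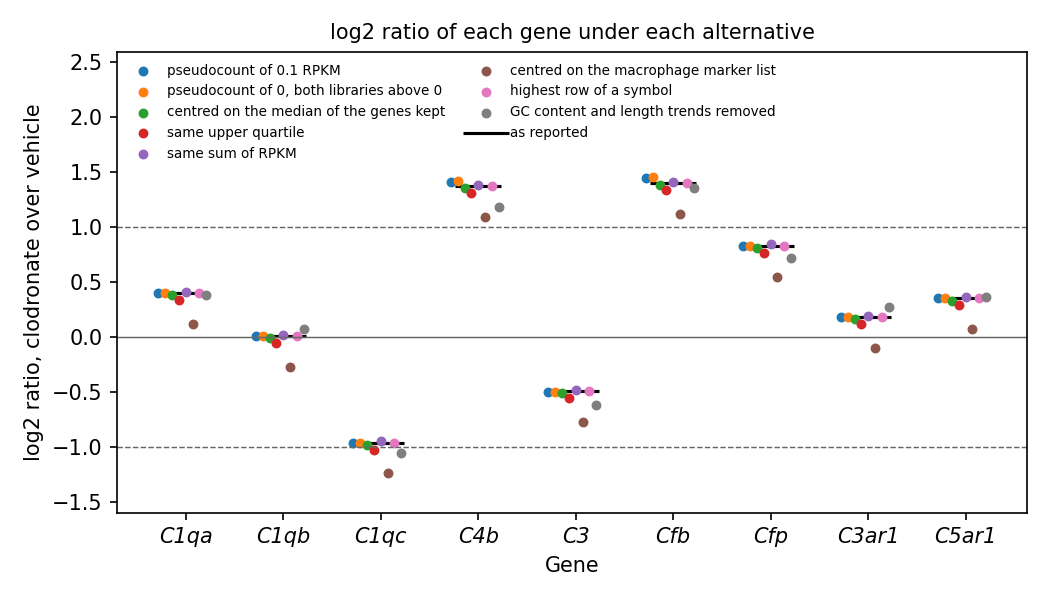
The log2 ratio of each of the 9 complement genes as reported (black bar) and under each of 8 alternatives (coloured points), with dashed lines at 2-fold. C4b and Cfb stay above the upper line throughout, and C1qc crosses the lower line under 3 alternatives.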

How the data were processed

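RNA of 2 libraries, 1 per condition, was measured by sequencing. The authors deposited RPKM for 23170 loci in each library, and the submitters' processing notes name CASAVA 1.8.2, TopHat2 2.0.9, Bowtie 0.12.9, Cufflinks 2.2.1 and Cuffdiff on the build mm9, without their settings. Starts in the files count from 0 and are given from 1. RPKM of a symbol on several lines were summed, and an accession replaced 26 symbols that had become numbers. The annotation release is not given in the sources used here. A pseudocount of 1 RPKM was added before the log2 ratio, and 10982 of 22886 genes, whose mean was 1 RPKM or more, were kept. The folds of 2 and 3 are counts past a size, with no test and no count model. Low RPKM times transcript length (GENCODE M21) fell near multiples of a fitted spacing, 0.0791 in the vehicle and 0.0967 in the clodronate library. Of the lowest values 86.7% and 85.8% were within 0.25 of a whole multiple. An even spread gives 50% for a spacing set beforehand. The spacing was fitted to these same values, so that 50% is not a fair reference. If 1 multiple is 1 read, 1 RPKM of a 1 kb transcript is 12.6 reads in the vehicle and 10.3 reads in the clodronate library, so the vehicle library was 1.22 times as deep. The reads given for a gene are such estimates. The members, lists and alternatives were chosen with earlier results of these data known. Genes named were the members, list genes, the 3 nearest in level to each member and genomic neighbours. One complement gene of the lists is not reported here. Other pseudocounts, filters and scalings were tried, and removal of the trends with GC content and length was added after seeing the data. Promoter motifs were searched and transcripts aligned with Biopython 1.88. The ratio and spacing steps were tested on simulated data with Python 3.11.15, numpy 2.4.6 and pandas 2.3.3.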

Additional observations from a re-analysis of the deposited data

How the results depend on the processing

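No paired analysis was possible because vehicle and clodronate were each sequenced as a single library. Past 2-fold, 0 complement members were lower as reported and 1, C1qc, was lower with equal upper quartiles, relative to macrophage markers, and with GC content and length trends removed, an alternative chosen after seeing the data. Past 2-fold higher there were 2 members, and past 3-fold 0, under every alternative run. Below 0 there were 2 members as reported, 3 with equal upper quartiles or centring on the median, and 4 relative to macrophage markers, where the members' median was 0.072 against 0.35. Of the further complement genes 2 were past 2-fold higher and 4 lower, against 1 and 7 relative to macrophage markers and 1 and 2 when a mean of 5 RPKM was asked for, where fewer genes are counted. Over all genes kept, 314 were past 3-fold higher and 255 lower. These were 532 and 480 with a pseudocount of 0.1, 437 lower with a pseudocount of 0, 203 and 408 relative to macrophage markers, and 127 and 101 under the 5 RPKM filter. Past 2-fold, 763 higher and 744 lower became 484 and 1328 relative to macrophage markers and 346 and 356 under the 5 RPKM filter. Centring and the pseudocount change these counts by construction. The highest line of a symbol cannot change a member, since each stands on 1 line. With 1 library per condition, no replicate could be left out. Ratios of genes with few estimated reads, such as C2 and Cd55, are limited by depth.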
